A study of Rattus norvegicus with 54 samples.

Results

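Dopamine receptors are the proteins through which dopamine, released in the nucleus accumbens by midbrain neurons, acts on its target cells. The 4 receptor genes described here are Drd1, Drd2, Drd3 and Drd5, taken by gene symbol out of 45785 named genes in a table of bulk RNA sequencing counts. Drd1 and Drd5 encode the D1-like receptors, which couple to stimulatory G proteins (Gs and, in striatum, Golf) and raise cyclic AMP. Drd2 and Drd3 encode D2-like receptors, which couple to inhibitory G proteins (Gi and Go) and lower it. In the accumbens Drd1 marks the spiny projection neurons that also make dynorphin and substance P, and Drd2 marks those that make enkephalin. Drd3 is known for its enrichment in the ventral striatum and in the islands of Calleja, clusters of small neurons at its ventral edge, and Drd5 is known from cortical neurons and striatal interneurons. Drd4, the remaining receptor gene, had between 0 and 20 reads per library, with 25 libraries at 0, and is not described further.

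RNA came from accumbens tissue of Long Evans rats and gave 54 libraries in 8 groups. Rats had been exposed to ethanol before birth (PAE) or came from a free-choice liquid diet condition (FCL), and as adolescents received alcohol (AAE) or water (VEH). Adolescent samples date from postnatal day 42 (P42), 24 h past the end of dosing, and adult ones from P90, without a further challenge. At P42 there were 9 PAE-VEH and 9 FCL-VEH male libraries, and 4 PAE-VEH and 7 FCL-VEH female libraries. At P90 there were 6 PAE-AAE and 6 FCL-VEH male libraries, and 5 PAE-AAE and 8 FCL-VEH female libraries. FCL-VEH rats serve as controls at both ages. Adult exposed rats carried the prenatal and the adolescent exposure at once, and those effects cannot be told apart in these groups; the same holds for age and time since exposure.

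Library totals had a median of 72.2 M (mega) counts, with a range of 58.8 M to 103.5 M. The tissue label fitted the markers of striatal projection neurons. Penk, the enkephalin precursor, had a median of 887 CPM (counts scaled to the library total), Adora2a, the adenosine receptor of D2-type neurons, 307 CPM, and Pdyn, the dynorphin precursor, 206 CPM. Markers of neighbouring tissue varied widely between libraries. Slc17a7, a vesicular glutamate transporter of cortical neurons, ran from 4.15 to 1180 CPM, and Ttr, a marker of choroid plexus, from 3.07 to 3760 CPM. In 3 libraries, replicate 5 of PAE-VEH males, replicate 8 of FCL-VEH males and replicate 5 of FCL-VEH females, all at P42, the sex-linked transcripts went against the sex in the label. A further library, replicate 6 of PAE-VEH males at P42, correlated less with its group than the rest (median r = 0.948). Without the 3 libraries, no log2 fold change of a receptor moved by more than 0.11, and without replicate 6 none moved by more than 0.16. At P90, Xist, a transcript of female cells, had 53.3 CPM in replicate 6 of FCL-VEH males and 30.8 CPM in replicate 5 of PAE-AAE males. Their Y-linked transcripts stood at 186 and 204 CPM, and they were not counted among the 3 libraries.

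The start regions of the 4 genes are printed because Drd1 and Drd2 transcripts varied together across libraries while Drd3 and Drd5 did not follow them. Each window covers 250 bases before and 50 bases after the annotated start, 5′ to 3′ on the gene's strand, from RefSeq on rat assembly GRCr8. Capitals mark GC boxes, the letters GGGCGG or, on the other strand, CCGCCC, which are known to be bound by Sp-family factors.
Drd1: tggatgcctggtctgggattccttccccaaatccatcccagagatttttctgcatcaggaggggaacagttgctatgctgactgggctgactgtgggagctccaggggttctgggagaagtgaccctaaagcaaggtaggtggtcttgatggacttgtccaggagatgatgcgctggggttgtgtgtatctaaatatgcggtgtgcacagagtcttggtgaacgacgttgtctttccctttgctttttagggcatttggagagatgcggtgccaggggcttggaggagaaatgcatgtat
Drd2: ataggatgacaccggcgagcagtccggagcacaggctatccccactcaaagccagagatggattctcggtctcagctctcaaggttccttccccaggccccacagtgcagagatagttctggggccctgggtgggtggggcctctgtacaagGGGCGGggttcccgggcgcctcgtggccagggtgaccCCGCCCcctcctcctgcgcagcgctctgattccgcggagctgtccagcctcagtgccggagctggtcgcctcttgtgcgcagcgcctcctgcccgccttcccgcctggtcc
Drd3: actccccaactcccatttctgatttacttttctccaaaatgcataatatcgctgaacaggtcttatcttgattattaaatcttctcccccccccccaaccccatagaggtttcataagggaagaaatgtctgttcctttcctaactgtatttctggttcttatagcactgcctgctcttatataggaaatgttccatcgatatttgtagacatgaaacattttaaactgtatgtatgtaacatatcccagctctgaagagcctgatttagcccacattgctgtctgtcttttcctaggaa
Drd5: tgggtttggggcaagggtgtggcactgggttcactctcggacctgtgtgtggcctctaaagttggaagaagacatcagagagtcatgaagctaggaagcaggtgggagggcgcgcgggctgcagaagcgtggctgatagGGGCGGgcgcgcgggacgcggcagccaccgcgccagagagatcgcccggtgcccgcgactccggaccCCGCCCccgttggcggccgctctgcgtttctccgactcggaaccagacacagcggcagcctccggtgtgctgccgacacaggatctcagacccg

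The Drd1 window lies at chr17:10546354-10546653 on the plus strand. Its annotated start, base 10546604, lies 1116 bases inside the gene as the deposited table draws it (chr17:10545488-10550029). The Drd2 window is chr8:58605153-58605452, at the start of a gene that spans chr8:58605403-58669339 on the plus strand. The Drd3 window is chr11:70437744-70438043, on the minus strand, for a gene at chr11:70385586-70437793. The Drd5 window is chr14:76703295-76703594, also on the minus strand, for a gene at chr14:76700244-76703344. None of the 4 genes overlapped another gene of the table.

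The windows differed in base composition. All Drd1 values here describe a window at a start 1116 bases inside the gene as deposited. The sequence before the deposited start of Drd1 was not examined. Drd2 had 67.3% G and C with 19 CpG dinucleotides, and Drd5 had 67% with 29. Drd1 had 51.7% with 5 CpG, and Drd3 had 39.3% with 2. The median over 33469 RefSeq promoters was 51.7% with 7 CpG. Drd2 and Drd5 each held 2 GC boxes and Drd1 and Drd3 held none, and 33.1% of all promoters held at least 1. The letters TGACG, the half-site of the cyclic AMP response element, and its full form TGACGTCA occurred in none of the 4 windows on either strand, against 21.2% and 1.83% of all promoters. The TATA box letters TATAAA were absent too, against 14.2%. Whether any of these letters bear on the transcript levels was not tested.

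Per transcript length, Drd1 and Drd2 stood far above Drd3 and Drd5. In the authors' FPKM, which scales fragments by transcript length and library size, the median over the 54 libraries was 69.9 for Drd1, 60.3 for Drd2, 1.65 for Drd3 and 0.863 for Drd5. Drd1 exceeded Drd2 in 49 of 54 libraries, with a median ratio of FPKM levels of 1.18 (range 0.93 to 1.42). Drd2 exceeded Drd3 in every library, by a median of 37.2 times (10.4 to 211). Drd3 exceeded Drd5 in 47 of 54 libraries, with a median ratio of 2.09 (0.502 to 5.65). The deposited lengths of these genes are 1481 and 3101 bases. In CPM, which takes no account of length, the medians were 2.46 for Drd3 and 2.68 for Drd5, so their order depends on the lengths used. The order of the receptors was thus clear between the abundant and the scarce pair, and was not the same in every library within each pair.

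**Figure D1:**
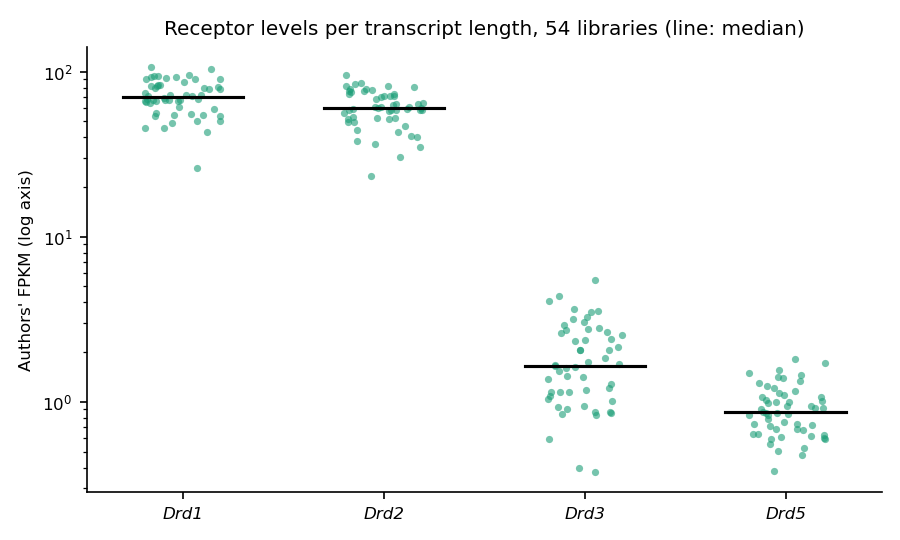
Authors' FPKM of the 4 receptor genes on a log axis, 1 point per library (54 each), with a line at the median. Drd1 and Drd2 lie between 23.4 and 106.2 FPKM, above all values of Drd3 (0.375 to 5.46) and Drd5 (0.382 to 1.82).

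In CPM, with library sizes scaled by the trimmed mean of M values (TMM), Drd1 ran from 115.5 to 472 CPM and Drd2 from 65.1 to 265 CPM. Both spanned about the same factor, 4.08 and 4.07. Drd3 spanned a factor of 14.6, from 0.559 to 8.13 CPM, and Drd5 a factor of 4.74, from 1.2 to 5.68 CPM. Raw reads behind these values were 10353 to 42747 for Drd1 and 5836 to 22520 for Drd2, but 37 to 541 for Drd3 and 83 to 396 for Drd5. Counting error for Drd3 and Drd5 came to between 5.74% and 8.03% of the group mean count, against an observed spread of 13.8% to 80.1% in CPM, so their spread exceeded counting error in all 8 groups.

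Within groups, all 4 receptors varied more than the typical gene of like abundance, most of all Drd1 and Drd2. The within-group SD of log2 CPM was 0.379 for Drd1, higher than in 96.4% of 1266 genes with a mean level within a factor of 2, whose median SD was 0.161. For Drd2 it was 0.399, higher than in 97.7% of 2558 such genes (median 0.148). For Drd3 it was 0.815, higher than in 87.6% of 3269 genes, and for Drd5 0.494, higher than in 57.4% of 3264 genes, with a median of 0.455 in both sets. Drd5 was therefore close to the middle of its abundance class.

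**Figure D2:**
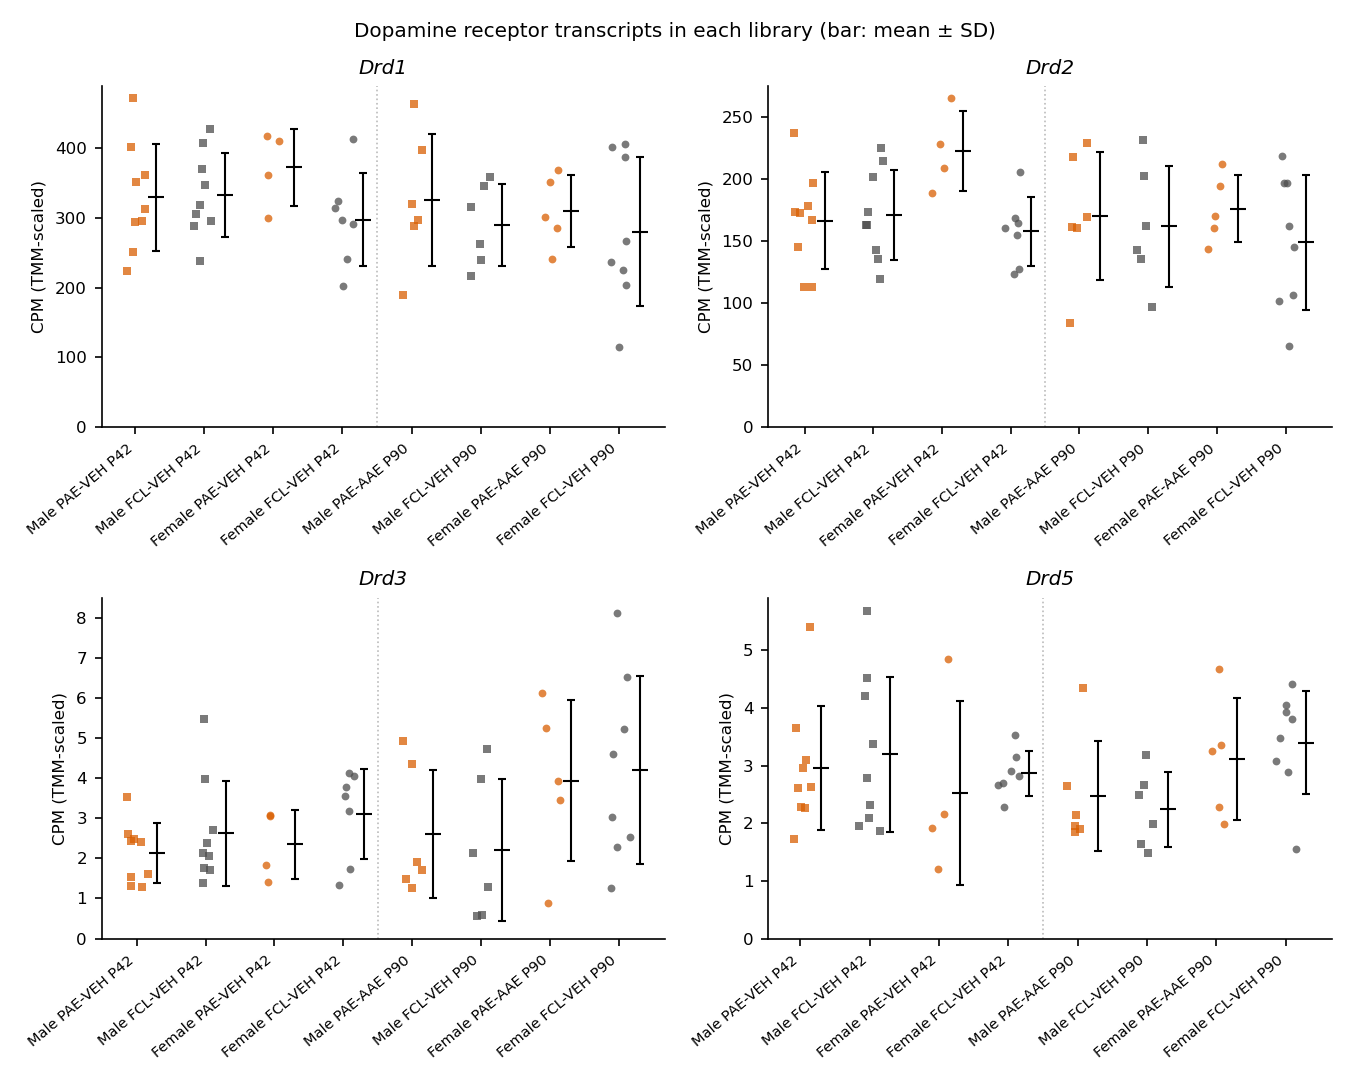
TMM-scaled CPM of each receptor in each library, by group, with exposed groups (orange) left of their FCL-VEH controls (grey), males as squares and females as circles, and mean ± SD beside the points. P42 groups stand left of the dotted line. The ranges of exposed and control libraries overlap for every receptor, and the 4 Drd2 points of PAE-VEH females at P42 (189 to 265 CPM) sit high.

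Group means lay close together against the spread between libraries. In bulk tissue, fewer cells of a type and less RNA per cell cannot be told apart. For Drd1 the highest group mean was 372 ± 54.8 CPM in PAE-VEH females at P42 (SD, n = 4) and the lowest 280 ± 106.98 CPM in FCL-VEH females at P90 (n = 8), a factor of 1.33. For Drd2 the same groups were highest, at 223 ± 32.4 CPM, and lowest, at 149 ± 54.5 CPM, a factor of 1.5. Ordered by mean, the only step between neighbouring groups larger than both their SDs was in Drd2, from PAE-VEH females at P42 to the next group, PAE-AAE females at P90 (176 ± 27.2 CPM, n = 5). Drd3 had its highest means in PAE-AAE females at P90, 3.94 ± 2.01 CPM, and in their FCL-VEH controls, 4.2 ± 2.35 CPM, and its lowest in PAE-VEH males at P42, 2.14 ± 0.748 CPM. Drd5 ran from 3.4 ± 0.9 CPM in FCL-VEH females at P90 to 2.24 ± 0.655 CPM in FCL-VEH males at P90. No step between neighbours in the order of Drd1, Drd3 or Drd5 exceeded the spread.

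No receptor passed the threshold, an adjusted p of 0.05, in any of the 11 comparisons made. The test was edgeR's quasi-likelihood F test, two-sided, with Benjamini-Hochberg adjustment over all genes tested. With no filter, other scalings, DESeq2 or limma voom, and with any single library left out, the number of receptors past the threshold was also 0. At an unadjusted p under 0.05, edgeR counted 1 receptor in PAE-VEH females at P42, where 11.3% of all genes were under it. It counted 1 in the sex difference of that effect (10.6% of all genes) and 1 in control males by age (17.6%). The sex difference of the age effect had 1 (8.50%), and control females over males at P90 had 2 (5.85%). The other comparisons had 0, among them control females by age (15.3%). The labels do not say that each library is a separate animal and give no litter, so p-values measure the spread between these libraries.

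**Figure D3:**
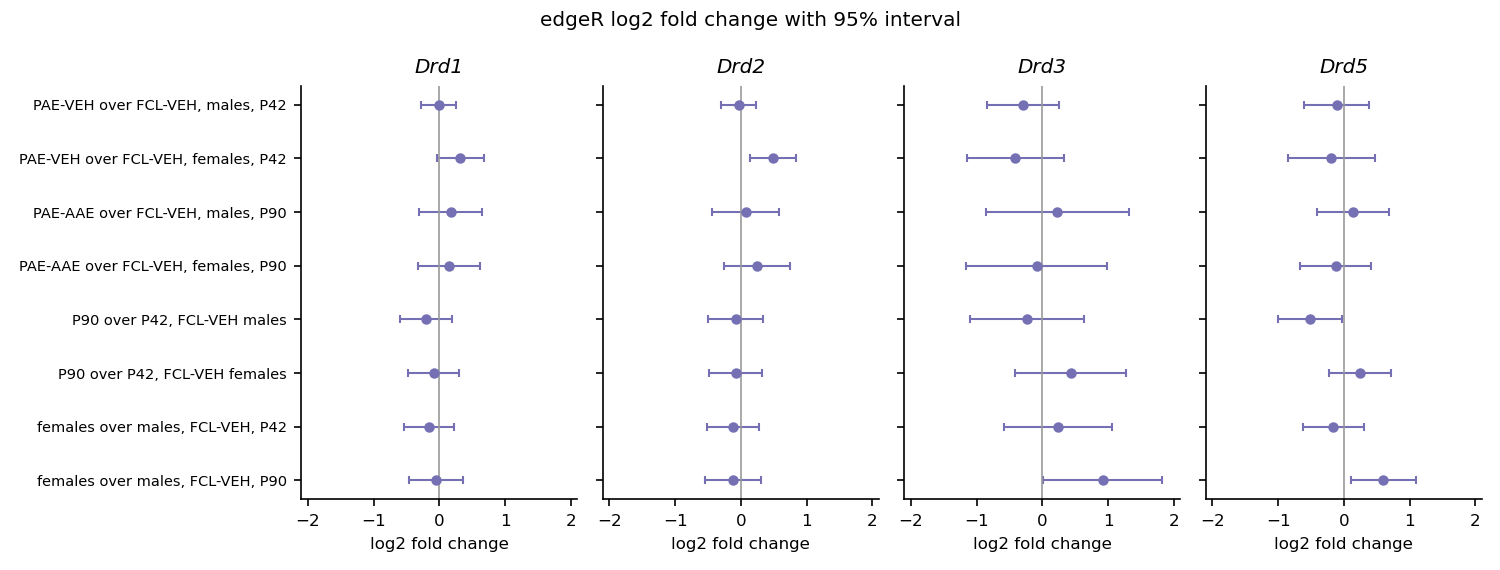
Log2 fold change of each receptor from edgeR, with its 95% interval, in the 8 comparisons between pairs of groups. The interval of Drd2 in PAE-VEH over FCL-VEH females at P42 (0.14 to 0.84) lies above 0, as do those of Drd3 and Drd5 in FCL-VEH females over males at P90, and that of Drd5 in FCL-VEH males at P90 over P42 lies below 0. None of these passed after adjustment.

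In females at P42, mean Drd2 and Drd1 levels were higher after prenatal ethanol, but neither difference passed the adjusted test. Drd2 had 265, 228, 209 and 189 CPM in PAE-VEH females, against a lowest, median and highest value of 123.1, 161 and 205 CPM in 7 FCL-VEH females. The ranges overlapped, with 3 of 4 PAE-VEH libraries above every control. The log2 fold change was 0.49 ± 0.17 (SE, edgeR adjusted p = 0.278), at place 747 of 24741 genes ordered by p. The lowest control was replicate 5, whose sex-linked transcripts went against its label. Without the libraries of this kind the log2 fold change was 0.44 (edgeR adjusted p = 0.416). In this comparison 0.00% of 24741 genes passed with edgeR, 11.3% (Drd2 included) had an unadjusted p under 0.05, and DESeq2 called 86 genes and limma voom 36, Drd2 not among them (adjusted p = 0.176 and 0.133).

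Drd1 had 418, 362, 411 and 299 CPM in PAE-VEH females, against 202, 297 and 413 CPM (lowest, median and highest) in FCL-VEH females, so the groups overlapped more widely. Its log2 fold change was 0.32 ± 0.18 (adjusted p = 0.5 by edgeR). The lowest control was again replicate 5, and without the libraries of unexpected sex-linked transcripts the log2 fold change was 0.24 (edgeR adjusted p = 0.637). Drd3 went the other way in its mean, with 1.84, 1.41, 3.06 and 3.09 CPM in PAE-VEH females, against 1.34, 3.56 and 4.12 CPM in FCL-VEH females (log2 fold change -0.41 ± 0.36, edgeR adjusted p = 0.68). Drd5 had 2.16, 1.2, 1.92 and 4.84 CPM in PAE-VEH females, against 2.28, 2.82 and 3.53 CPM in FCL-VEH females. The library with the high Drd5 value, replicate 4, was also the one with a cortical marker score of 2.59, where the other 3 had -0.72 to -0.59. Without it the log2 fold change of Drd5 was -0.70, against -0.19 with it (edgeR adjusted p = 0.465 and 0.858). Whether cortical tissue bears on the Drd5 value of that library was not tested.

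In the same comparison most marker genes of spiny projection neurons had a log2 fold change above 0, and so had most genes of some other lists. All 14 genes of a list of shared spiny neuron identity had a log2 fold change above 0, with a median of 0.39, and so had 6 of 6 markers of D2-type neurons (median 0.47) and 6 of 8 of D1-type neurons (median 0.21), where the median of all genes was -0.03. So had 10 of 10 immediate early genes (median 0.57) and 7 of 8 cortical excitatory neuron markers (median 0.70). None of these genes passed the threshold. Penk had the smallest p, with 0.77 ± 0.18 (edgeR adjusted p = 0.147). The shared spiny neuron score, a mean log2 level relative to all libraries, ran from 0.2 to 0.52 in PAE-VEH females and from -0.35 to 0.37 in FCL-VEH females. Of the same list 14 of 14 genes were also above 0 in PAE-AAE females at P90 (median 0.16). In FCL-VEH females over males at P42, 0 of 14 were (median -0.11). The cortical score had a median of -0.62 in both female groups at P42. It ran from -0.72 to 2.59 in PAE-VEH females and from -1.52 to 1.75 in FCL-VEH females. All 7 septum and pallidum markers, 12 choroid plexus markers and 8 myelin genes were below 0 (medians -0.87, -1.20 and -0.32). The choroid plexus score overlapped, from -1.13 to 0.25 in PAE-VEH females (median -0.65) and from -0.77 to 2.66 in FCL-VEH females (median -0.43). With the spiny neuron score as a covariate, the log2 fold change was 0.05 for Drd2 (edgeR adjusted p = 0.797) and -0.11 for Drd1 (adjusted p = 0.638). Across the 54 libraries that score had an r of 0.981 with Drd2 and 0.952 with Drd1, so the covariate takes up nearly all of their variation and these values bear on no cause.

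The wider dopamine pathway had small fold changes in these females, and none of its genes passed. Of 27 transduction genes, the G proteins, adenylyl cyclase, kinase, phosphatase and phosphodiesterase genes downstream of the receptors, 22 had a log2 fold change above 0 with a median of 0.20. Pde2a, a cyclic nucleotide phosphodiesterase, had the smallest p (0.35 ± 0.08, edgeR adjusted p = 0.147), before Arpp19, a regulator of protein phosphatase (0.42 ± 0.13, adjusted p = 0.227). Of 15 genes of desensitisation and trafficking, 10 were above 0 (median 0.07), among them Dlg4, the scaffold PSD-95 (0.27), and Palm, a membrane-linked partner of D3 receptors (0.24). Of 7 genes of dopamine synthesis, transport and breakdown, 2 were above 0 (median -0.23).

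In males at P42 the abundant receptors had nearly the same level with and without prenatal ethanol. Drd2 had a lowest, median and highest value of 113.2, 173 and 237 CPM in 9 PAE-VEH males, against 119.5, 163 and 225 CPM in 9 FCL-VEH males, and Drd1 225, 314 and 472 CPM in PAE-VEH males, against 239, 319 and 427 CPM in FCL-VEH males. The log2 fold changes were -0.04 ± 0.13 for Drd2 and -0.01 ± 0.13 for Drd1, with 95% intervals of -0.31 to 0.23 and -0.28 to 0.26. Drd3 averaged 2.14 ± 0.748 CPM in PAE-VEH males and 2.63 ± 1.31 CPM in FCL-VEH males (log2 fold change -0.30 ± 0.27), and Drd5 2.96 ± 1.07 CPM and 3.2 ± 1.34 CPM (-0.11 ± 0.24). All ranges overlapped, and 0.00% of 24741 genes passed with edgeR (8.96% before adjustment). DESeq2 called 24 genes and limma voom 1, no receptor among them. The transduction list had a median log2 fold change of 0.01 with 14 of 27 genes above 0, where the median of all genes was 0.01.

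For Drd2 the prenatal log2 fold change in females less that in males was 0.53 ± 0.22 (adjusted p = 0.409 by edgeR), which passed 0.05 only before adjustment. Here too 0.00% of genes passed, 10.6% had an unadjusted p under 0.05, and Drd2 was not among the 72 genes of DESeq2 or the 81 of limma voom. For Drd1 the difference was 0.33 ± 0.22, for Drd3 -0.11 ± 0.44 and for Drd5 -0.08 ± 0.40.

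In adults, rats with both exposures overlapped their controls for every receptor. Drd1 had 369, 242, 301, 285 and 352 CPM in PAE-AAE females, against 115.5, 251 and 406 CPM (lowest, median and highest) in 8 FCL-VEH females. Drd2 had 171, 143.8, 194, 160 and 212 CPM in PAE-AAE females, against 65.1, 154 and 219 CPM in FCL-VEH females. The log2 fold changes were 0.15 ± 0.23 and 0.24 ± 0.24. The control group held the library with the lowest Drd1 and Drd2 of all 54, replicate 1, whose spiny neuron score of -1.21 was also the lowest; without it the log2 fold change was 0.03 for Drd1 and 0.13 for Drd2. Drd3 averaged 3.94 ± 2.01 CPM in PAE-AAE females and 4.2 ± 2.35 CPM in FCL-VEH females, with a range of 0.892 to 6.14 CPM inside the first group alone. Drd5 averaged 3.11 ± 1.06 CPM and 3.4 ± 0.9 CPM in the same groups, and the log2 fold changes were -0.09 ± 0.52 for Drd3 and -0.13 ± 0.26 for Drd5.

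In adult males, Drd1 had a lowest, median and highest value of 190, 309 and 464 CPM in 6 PAE-AAE libraries, against 216, 289 and 359 CPM in 6 FCL-VEH libraries, and Drd2 83.8, 165 and 229 CPM, against 97.1, 152.2 and 232 CPM. Drd3 had 1.26, 1.81 and 4.93 CPM in PAE-AAE males, against 0.559, 1.71 and 4.73 CPM in FCL-VEH males. Both groups held 2 libraries well above the rest, with 4.36 and 4.93 CPM among PAE-AAE males and 3.99 and 4.73 CPM among FCL-VEH males. Drd5 had 1.85, 2.06 and 4.34 CPM in PAE-AAE males, against 1.48, 2.23 and 3.19 CPM in FCL-VEH males. The log2 fold changes were 0.17 ± 0.23 for Drd1, 0.07 ± 0.25 for Drd2, 0.23 ± 0.53 for Drd3 and 0.14 ± 0.26 for Drd5. The 95% interval for Drd3, -0.86 to 1.31, was the widest of the 4. In adults 0.00% of 24018 genes passed with edgeR in males, in females and in the difference between the sexes, with 8.74%, 4.23% and 10.6% under 0.05 before adjustment. DESeq2 called 2 genes in males and 8 in females, limma voom 1 in each, both tools 0 for the difference between the sexes, and no receptor was called. That difference, females less males, was -0.02 ± 0.33 for Drd1, 0.17 ± 0.35 for Drd2, -0.31 ± 0.74 for Drd3 and -0.27 ± 0.37 for Drd5.

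Some lists of other cells or tissue lay to one side of 0 in the adult comparisons, without passing. All 12 choroid plexus markers were above 0 in PAE-AAE females (median log2 fold change 1.18), while in PAE-AAE males 11 of 12 choroid markers and all 8 myelin genes were not (medians -0.93 and -0.47). Nor were all 8 cortical, 8 astrocyte and 8 microglia markers in these males (medians -0.62, -0.24 and -0.41). Their 6 cholinergic interneuron and 5 endothelial markers were all above 0 (medians 0.34 and 0.33). In PAE-AAE females all 6 cholinergic markers were above 0 too (median 0.25). Other lists were mixed in these females, with 2 of 8 cortical, 3 of 7 septum and pallidum and 6 of 8 myelin genes above 0 (medians -0.22, -0.01 and 0.03). The part of these cells in the receptor values was not tested. In PAE-AAE females 14 of 14 shared spiny neuron identity genes and 6 of 6 D2-type markers were above 0, none past the threshold (medians 0.16 and 0.26). In PAE-AAE males 10 of 14 and 4 of 6 were (medians 0.04 and 0.07). Of the dopamine pathway lists none had a gene past the threshold in adults. In PAE-AAE females 23 of 27 transduction genes had a log2 fold change above 0, with a median of 0.09, against -0.02 for all genes. Rgs2, which speeds the switching off of G proteins, had the smallest p of that list (0.31 ± 0.12, edgeR adjusted p = 1.0). In PAE-AAE males 13 of 27 were above 0 (median 0.00). Ddc, which makes dopamine from DOPA, had 0.58 ± 0.21 in males and -0.42 ± 0.21 in females, and the difference of -1.002 ± 0.30 did not pass (edgeR adjusted p = 0.423).

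Between P42 and P90 the receptors did not pass in controls of either sex, in comparisons where 2.53% of 24065 genes passed in males (1.93% higher and 0.603% lower at P90) and 0.420% in females. Before adjustment, edgeR gave 17.6% of genes in males and 15.3% in females a p under 0.05. Drd1 averaged 290 ± 59 CPM in FCL-VEH males at P90 and 333 ± 60.5 CPM at P42 (log2 fold change -0.20 ± 0.20), and 280 ± 106.98 CPM in females at P90 and 298 ± 66.9 CPM at P42 (-0.09 ± 0.19). Drd2 averaged 162 ± 48.8 CPM in males at P90 and 171 ± 36.4 CPM at P42 (-0.08 ± 0.20), and 149 ± 54.5 CPM in females at P90 and 158 ± 27.6 CPM at P42 (-0.08 ± 0.20). Drd5 had a lowest, median and highest value of 1.48, 2.23 and 3.19 CPM in males at P90, against 1.87, 2.78 and 5.68 CPM at P42, so the groups overlapped. Its log2 fold change was -0.51 ± 0.24 (adjusted p = 0.255 by edgeR), and leaving out single libraries gave -0.63 to -0.37. In females it was 0.25 ± 0.23, and the difference between the sexes, 0.76 ± 0.33, did not pass either (edgeR adjusted p = 0.548, with 0.00% of genes past the threshold and 8.50% at an unadjusted p under 0.05; DESeq2 and limma voom called 0 genes). Drd3 had a log2 fold change of -0.24 ± 0.42 in males and 0.43 ± 0.41 in females.

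Around the receptors, Maob, a dopamine supply gene for monoamine oxidase B, an enzyme that breaks dopamine down, rose with age in control males. It averaged 89.2 ± 18.3 CPM at P90 and 65.0 ± 6.89 CPM at P42 (log2 fold change 0.46 ± 0.12, edgeR adjusted p = 0.0346). It passed in 9 of 15 fits with 1 library left out, missing without adult replicate 3, 4 or 6 or adolescent replicate 2, 4 or 7, and it did not pass with limma voom (adjusted p = 0.0922). All 12 choroid plexus and all 8 astrocyte markers had a log2 fold change above 0 in the same comparison (medians 1.04 and 0.27). Past the threshold, 2 of 8 astrocyte markers, 1 of 8 microglia markers and 3 of 10 immediate early genes rose, and 1 of 6 GABAergic interneuron markers fell. Among all genes tested, 1.93% rose and 0.603% fell. The part of these cells in the rise of Maob was not tested.

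In control females 1 of 15 desensitisation and trafficking genes rose with age, where 0.224% of all genes tested did. Ncs1, a calcium sensor that binds D2 receptors and slows their removal from the membrane, averaged 119.2 ± 13.0 CPM at P90 and 93.3 ± 5.62 CPM at P42 (0.36 ± 0.08, edgeR adjusted p = 0.0355). It passed in 5 of 15 fits with 1 library left out, missing without adult replicate 2, 3, 5, 7 or 8 or adolescent replicate 1, 2, 3, 4 or 6 (largest adjusted p = 0.0787), and its sex difference of 0.37 ± 0.11 did not pass (edgeR adjusted p = 0.47). Of the cortical neuron markers 7 of 8 had a log2 fold change above 0 in the older females (median 1.06). The cortical score overlapped, with -1.65 to 2.64 at P90 (median -0.20) and -1.52 to 1.75 at P42 (median -0.62). The part of these markers was not tested. None of the 27 transduction genes passed in either sex, with medians of -0.07 in males and 0.01 in females.

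Between the sexes, control females and males at P42 did not differ in any receptor past the threshold, with log2 fold changes of -0.16 ± 0.19 for Drd1, -0.12 ± 0.19 for Drd2, 0.24 ± 0.40 for Drd3 and -0.16 ± 0.22 for Drd5. There 0.00% of genes passed with edgeR, 6.08% fell under 0.05 before adjustment, and DESeq2 and limma voom each called 7 genes, no receptor among them. Both groups held a library whose sex-linked transcripts went against its label, male replicate 8 and female replicate 5. Without these libraries the log2 fold changes were -0.09, -0.06, 0.29 and -0.25 in the order above. At P90 the scarce receptors stood higher in females without passing. Drd5 had a lowest, median and highest value of 1.55, 3.64 and 4.42 CPM in FCL-VEH females, against 1.48, 2.23 and 3.19 CPM in FCL-VEH males (log2 fold change 0.60 ± 0.24, adjusted p = 0.818 by edgeR). Drd3 had 1.25, 3.82 and 8.13 CPM in females, against 0.559, 1.71 and 4.73 CPM in males (0.92 ± 0.44, adjusted p = 0.818 by edgeR). Both pairs of ranges overlapped. In this comparison 0.0499% of genes passed, 12 in all, of which 0.0166% of those tested were higher and 0.0332% lower in females, and 5.85% fell under 0.05 before adjustment. Choroid plexus markers were lower in the females (11 of 12, median -1.89), as were all 8 myelin genes (median -0.57). Of the cortical markers 7 of 8 had a log2 fold change above 0 (median 0.75). The cortical score had medians of -0.20 in females and -0.18 in males, with ranges of -1.65 to 2.64 and -1.55 to 2.18. The part of these markers was not tested. Drd1 and Drd2 had -0.05 ± 0.20 and -0.12 ± 0.21.

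Across libraries, Drd1 and Drd2 moved together. Over 54 libraries, after each group's mean was taken off, Pearson's r between their log2 CPM was 0.935 and Spearman's rho 0.909 (p = 1e-05, the smallest that 100000 permutations within groups can give; adjusted p = 6e-05 over 6 pairs). Without the 2 libraries farthest from the median r was 0.912, and it was 0.936 in adolescents alone, 0.935 in adults alone and 0.936 once the 3 libraries with unexpected sex-linked transcripts were dropped. The lowest Drd1 and the lowest Drd2 value lay in the same library in 8 of 8 groups, and the highest in 6 of 8. In rodents the spiny neurons that carry Drd1 and those that carry Drd2 are largely separate cells.

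The other pairs were far weaker. Drd3 and Drd5 had r = 0.328 (rho 0.393; permutation adjusted p = 0.0552 and 0.0172), and Drd1 and Drd3 had r = 0.307 (rho 0.27; adjusted p = 0.082 and 0.147). Drd1 and Drd5 had -0.066, Drd2 and Drd3 0.056, and Drd2 and Drd5 -0.162, with permutation adjusted p of 0.733, 0.733 and 0.391. Receptors of the same signalling class, Drd1 with Drd5 and Drd2 with Drd3, were thus not the ones whose levels went together.

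The ratio of Drd1 to Drd2 reads within a library does not depend on how libraries are scaled. It ran from 1.49 to 2.27 with a median of 1.89, and its within-group SD on the log2 scale was 0.142, against 0.379 and 0.399 for each gene alone. In PAE-VEH females at P42 the log2 ratio averaged 0.740 ± 0.157, against 0.903 ± 0.121 in FCL-VEH females (SD, n = 4 and 7), a difference of -0.163 (two-sided exact permutation p = 0.0909, adjusted p = 0.659 over 8 comparisons). In PAE-AAE females at P90 it averaged 0.811 ± 0.183, against 0.902 ± 0.143 in FCL-VEH females (difference -0.091, adjusted p = 0.659 by the same exact test). That difference was -0.167 without PAE-AAE replicate 1, -0.047 without PAE-AAE replicate 3 and -0.183 between group medians, and it passed in none of these. Males had 0.988 ± 0.103 with PAE-VEH and 0.97 ± 0.07 with FCL-VEH at P42, and 0.952 ± 0.128 with PAE-AAE and 0.869 ± 0.238 with FCL-VEH at P90. No comparison passed, and all 8 pairs of groups overlapped.

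The log2 ratio of Drd1 to Drd2 reads correlated with the difference between the D1-type score (Pdyn, Tac1 and 6 others) and the D2-type score (Penk, Adora2a and 4 others), neither of which holds a receptor gene of the ratio. Over 54 group-centred libraries r was 0.635 and rho 0.65 (permutation p = 1e-05, the smallest possible), and r was 0.595 without the 2 farthest libraries. It was 0.487 in the 29 adolescent and 0.796 in the 25 adult libraries (permutation p = 0.015 and 3e-05). This relation was chosen after values had been seen.

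**Figure D4:**
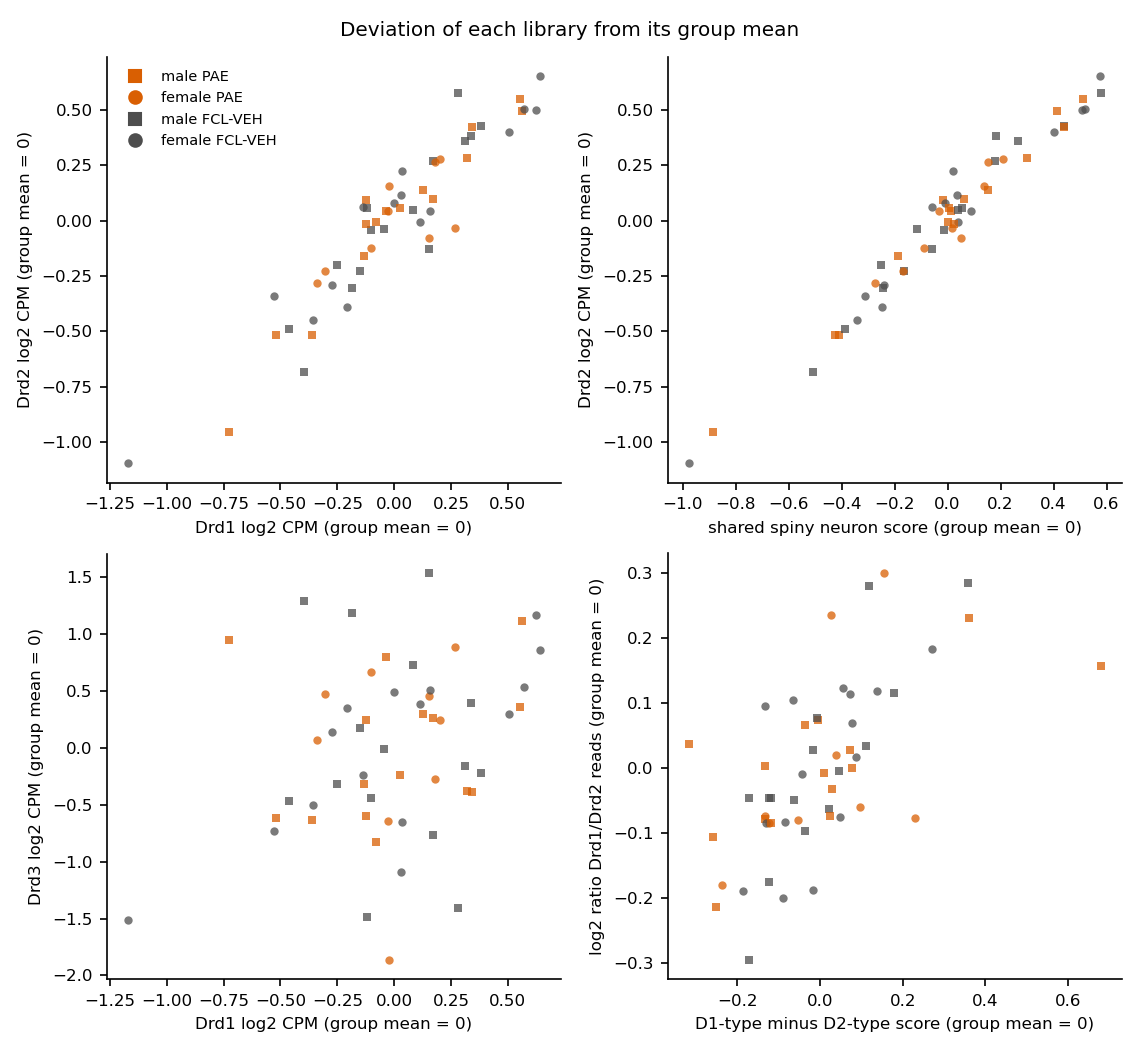
Deviation of each of the 54 libraries from its group mean, on the log2 scale, exposed groups in orange and FCL-VEH in grey. Drd2 follows Drd1 (r = 0.935) and the shared spiny neuron score (r = 0.981) along a line, Drd3 scatters against Drd1 (r = 0.307), and the ratio of Drd1 to Drd2 reads rises with the D1-type minus D2-type score (r = 0.635).

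Scores of 18 marker lists were set against each receptor in the same way, which gave 72 pairs, 24 of them with an adjusted p under 0.05. Drd1 went with shared spiny neuron identity (r = 0.952), D1-type markers (0.947), transduction genes (0.90) and D2-type markers (0.876). Drd2 went with shared spiny neuron identity (0.981), D2-type markers (0.949), transduction genes (0.910) and D1-type markers (0.860). Each of these 8 had the permutation p of 1e-05. Septum and pallidum markers ran against both, with -0.583 for Drd1 and -0.619 for Drd2, and immediate early genes ran with both, 0.523 and 0.509. Weaker negative relations that passed were those of Drd1 with myelin (-0.406) and of Drd1 and Drd2 with dopamine supply genes (-0.301 and -0.321). The supply relations did not pass without the libraries of unexpected sex (permutation adjusted p = 0.107 for Drd1 and 0.0719 for Drd2), that of Drd1 did not without replicate 6 of PAE-VEH males at P42 (0.0532), and neither they nor the myelin relation passed within either age. In adolescents alone the septum and pallidum and the immediate early gene relations did not pass (r of -0.306 and -0.352 for septum and pallidum, and of 0.312 and 0.301 for immediate early genes). Levels within a library share its depth and its tissue piece.

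Drd3 had another set of relations. It ran against myelin genes (r = -0.620, permutation adjusted p = 0.00024) and microglia markers (-0.483, adjusted p = 0.00472), and with desensitisation genes (0.392) and D1-type markers (0.360, which was 0.268 without the 2 farthest libraries). Neither of these positive relations passed within adolescents or adults alone, that with D1-type markers did not without the libraries of unexpected sex (permutation adjusted p = 0.0631), and that with microglia did not in adults alone (0.128). With the islands of Calleja markers (Tshz1, Rxfp1 and Cpne4) r was 0.316 and rho 0.465 (permutation adjusted p = 0.0583 and 0.00566). Its r with shared spiny neuron identity was 0.092 and with D2-type markers 0.004.

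Drd5 went with desensitisation genes (r = 0.537), the islands of Calleja markers (0.507), cortical excitatory neuron markers (0.49) and GABAergic interneuron markers (0.473), and against ependyma (-0.478), all with a permutation adjusted p of at most 0.00319. In adults alone none of these 5 passed, with r of 0.258, 0.268, 0.376, 0.352 and -0.346 in that order, and with library totals in place of TMM the first fell to 0.238 (adjusted p = 0.139). The r of Drd5 with shared spiny neuron identity was -0.136.

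**Figure D5:**
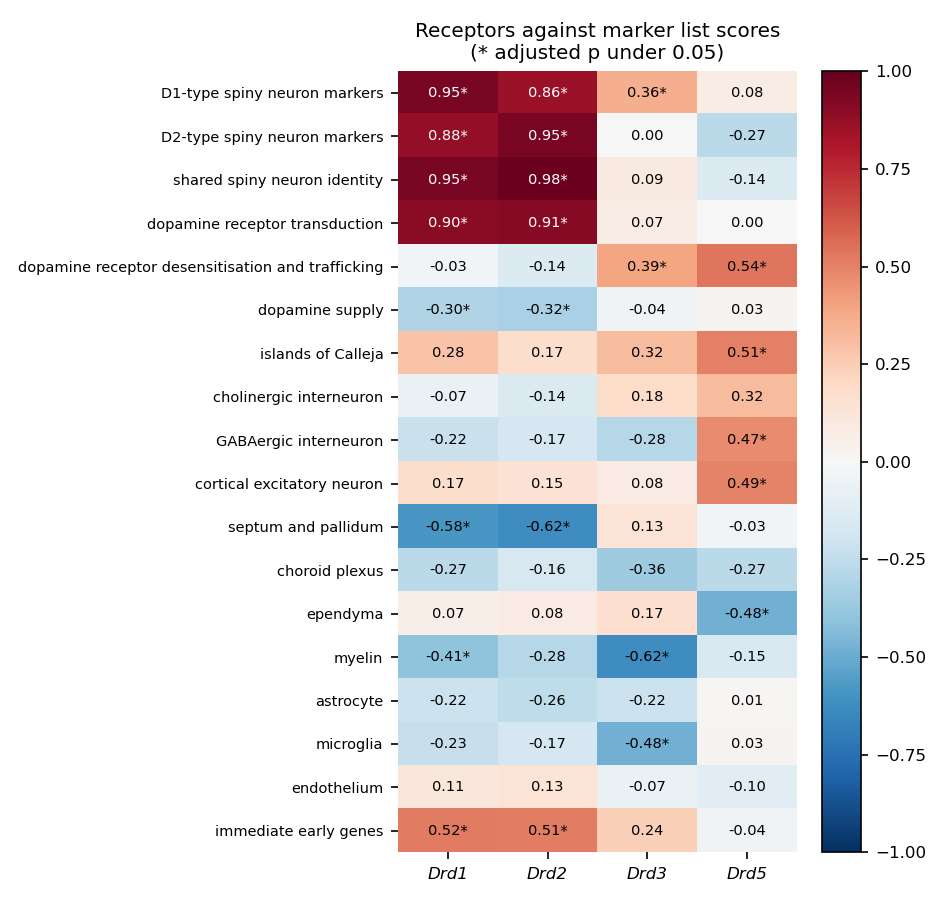
Pearson's r, within groups over 54 libraries, between each receptor (columns) and the score of each marker list (rows), with a star where the permutation p adjusted over 72 pairs was under 0.05. Drd1 and Drd2 share the dark block of spiny neuron and transduction lists, while the stars of Drd3 and Drd5 fall mostly on other lists.

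Genes whose pattern was most like each receptor were taken from the 5 with the highest r over the 54 group-centred libraries, among 14457 genes, and are a description with no test. For Drd1 they were Bcl11b, a transcription factor of spiny neurons (0.964), Chst15, a chondroitin sulfotransferase (0.962), Lingo3 (0.951) and Cacna2d3, a calcium channel subunit (0.949), and Drd2 ranked at place 23. For Drd2 they were Pde1b, a calcium-dependent phosphodiesterase (0.983), Adora2a (0.973), Ano3 (0.965) and Gpr6, a receptor of D2-type neurons (0.963), and Drd1 ranked at place 36. Bcl11b, Pde1b, Adora2a and Gpr6 also belong to the lists above.

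The scarce receptors had looser companions. For Drd3 they were Tenm4, a teneurin (0.778), Ntn1, the guidance cue netrin (0.773), Cartpt, the precursor of the peptide CART (0.770), Zfp804a (0.765) and Slco5a1 (0.761). For Drd5 they were Syt1, the calcium sensor of synaptic vesicle release (0.724), Ube2ql1 (0.701), Sh3gl2, the endocytic protein endophilin (0.693), Cdh10, a cadherin (0.691), and Mapk8, the kinase JNK (0.690). No gene was among the 5 of both an abundant and a scarce receptor.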

How the data were processed

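Bulk RNA was sequenced from 54 accumbens libraries in 8 groups, read from the sample titles; replicate numbers follow deposition order and pair nothing. Per the labels, libraries were not strand-specific, cDNA came from random hexamers, and RNA integrity lay above 6.3 except for a single 5.8, averaging 7.2. The authors deposited raw read counts per gene and FPKM values in 1 table; the submitters' processing notes name fastp and HISAT2 2.0.5, and the sources used here do not give the counter, annotation or build. Counts were tested; FPKM served only to compare receptors by length. Of 46505 rows, 720 without a gene name (0.271% to 0.412% of counts) were left out. All 45780 IDs matched in GRCr8 had the same start and end. Unstranded reads do not separate overlapping genes.

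edgeR 4.0.16 (R 4.3.3) fitted 29 adolescent (24741 genes after its default filter), 25 adult (24018) and 30 control libraries (24065), with TMM and biological coefficients of variation of 34.2%, 39.6% and 35.4%. Read ratios used exact permutation tests. Correlations used log2 CPM (prior count 2) over 26079 genes. Scores are means of log2 CPM centred per gene. Alternatives included DESeq2 1.42.0 and limma 3.58.1 (voom). Scripts were tested on simulated data. The labels name no molecular identifiers, so counting error is a lower limit on error. The members, the lists and the tests were chosen with earlier results of these data known. Named genes are the 4 receptors in every comparison, of a list the top genes past the threshold (at most 4) or, failing any, the 2 of smallest p, given for the lists that bear on a result, and the 5 genes most alike each receptor, with a symbol and a mean of at least 1 CPM; some genes that the rule names are not reported here; the extremes of neighbouring-tissue markers were named after values were seen.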

Additional observations from a re-analysis of the deposited data

Results flagged for a closer look

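A single library stood apart from the others of its group in 2 of 40 sets of values examined, where chance flags about 1 in 20. Drd5 in replicate 3 of PAE-AAE males at P90 was 4.34 CPM, against 1.85 to 2.64 CPM in the other libraries of the group; without it the log2 fold change of Drd5 over FCL-VEH males was -0.10, against 0.14 with it. This library also had the lowest Drd1 (190 CPM) and Drd2 (83.8 CPM) of its group and a spiny neuron score of -0.93. The log2 ratio of Drd1 to Drd2 reads in replicate 3 of PAE-VEH females at P42 was 0.976, against 0.655 to 0.667 in the other 3; leaving it out changed the difference from FCL-VEH females to -0.241, from -0.163 with it. The cause of either value was not tested.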

How the results depend on the processing

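No receptor passed the adjusted threshold under any alternative of any comparison, so the counts of receptors past it stayed at 0 in all 75 counts under other settings and all 198 with 1 library left out. Differences changed sign in 21 values under other settings (277 did not) and in 59 with 1 library left out (733 did not); the cause was not tested beyond the construction of each setting. With the spiny neuron score as a covariate, Drd1 had a log2 fold change of -0.11 in PAE-VEH females at P42, -0.11 for the sex difference of that effect, -0.056 in PAE-AAE females, 0.051 with age in females and 0.041 for sex at P90. Under it Drd2 had -0.0071 in PAE-AAE females, -0.0435 for the sex difference of that effect, 0.044 with age in males, 0.069 with age in females, 0.025 for the sex difference of age, 0.0060 for sex at P42 and 0.031 for sex at P90, and Drd5 had 0.13 for the sex difference of PAE-VEH. With limma voom, in PAE-VEH males Drd1 had 0.030 and Drd2 0.0039, Drd5 had -0.0099 in PAE-AAE males and 0.025 for sex at P42, and Drd2 had 0.026 for the sex difference of age. Without the outlying library, in PAE-VEH males Drd1 had 0.028 and Drd2 0.0195, Drd5 had 0.080 for the sex difference of PAE-VEH, and the Drd1 to Drd2 ratio had -0.002 in PAE-VEH males; with group medians the ratio had 0.013 with age in females.

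With 1 library left out, log2 fold changes whose sign turned ranged as follows. In PAE-VEH males they ran from -0.094 to 0.0455 for Drd1, -0.12 to 0.023 for Drd2 and -0.27 to 0.037 for Drd5. In PAE-VEH females Drd5 ran from -0.70 to 0.041, and for the sex difference Drd3 from -0.33 to 0.0655 and Drd5 from -0.58 to 0.16. In PAE-AAE males Drd2 ran from -0.038 to 0.21, Drd3 from -0.05 to 0.60 and Drd5 from -0.097 to 0.27. In PAE-AAE females Drd3 ran from -0.31 to 0.16, and for the sex difference Drd1 from -0.14 to 0.10. With age, Drd2 ran from -0.21 to 0.052 in males, and in females Drd1 from -0.18 to 0.028 and Drd2 from -0.18 to 0.031, and Drd2 from -0.14 to 0.13 for the sex difference. For sex at P90 Drd1 ran from -0.14 to 0.069 and Drd2 from -0.24 to 0.0099. The ratio ran from -0.002 to 0.045 in PAE-VEH males, -0.032 to 0.028 with age in females and -0.026 to 0.09 for sex at P90.

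With CPM per total count the correlations of Drd1 with Drd3 (r = 0.335) and of Drd3 with Drd5 (r = 0.342) passed (permutation adjusted p = 0.0416 for both), and without the outlying library that of Drd3 with Drd5 did too (r = 0.385, permutation adjusted p = 0.019). Of the list correlations, 100 values kept their side of the threshold and 25 did not. Ncs1 missed with no filter on low counts (edgeR adjusted p = 0.0586) and without the libraries of unexpected sex (0.0509), and Maob with all libraries in 1 fit (0.0677). No paired analysis was possible because replicate numbers only follow deposition order. Drd3 and Drd5, at 37 to 541 reads a library, have the least precise values.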
